A study of Mus musculus with 10 samples.

Results

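GFRα1+ spermatogonia sorted from Fgf5-/- and WT testes were compared across genes, to describe pathways and cell state outside the known FGF5 targets of cultured spermatogonia and outside the chromosome region next to Fgf5. The 6 sorted arrays were taken, 3 per genotype, of 10 arrays in the series; the other arrays came from cultured spermatogonia. Testing took every non-control probe that stood well above background throughout 1 genotype or the other, meaning on all 3 of its arrays, which gave 16023 tested genes of 23935 genes named on the array. After 19 known targets and 106 tested genes within 10 Mb of the Fgf5 probe were left out, 15898 genes remained for the counts and lists.

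Both genotypes were on C57BL/6 and carried the Gfrα1-GFP knock-in allele, in which GFP reports the GDNF co-receptor GFRα1. The Fgf5-/- mice carried the go-moja null allele, and the WT mice carried functional Fgf5. Cells were taken by flow cytometry as the GFP+ fraction at 2.5 months of age, with no factor or drug given. The series design states that independent experiments were done for each genotype, and nothing states whether a sample pooled several animals, so the fitted p-values measure the spread between samples.

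Spermatogonia that express GFRα1 hold the stem cell activity of the mouse testis, and they respond to GDNF through the receptor pair GFRα1 and RET and to FGFs through FGF receptors. FGF receptors signal through RAS and ERK kinases, which switch on transcription factors and also the phosphatases and adaptors that damp the same signal. FGF5 is a secreted ligand of this family. Values below are log2 signals after the 75th percentile of the array was subtracted, and a difference is Fgf5-/- minus WT on this scale.

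The sorted cells carried the markers of their label. All of Gfra1, Ret, Zbtb16, Sall4, Lin28a, Cdh1, Etv5, Id4, Ddx4 and Dazl were well above background on all 6 arrays. Gfra1 read 0.71, 0.76 and 0.89 on the WT arrays and 0.58, 0.63 and 0.72 on the Fgf5-/- arrays, and Ret, the kinase that works with it, read 1.61, 1.76 and 1.81 on the WT arrays and 1.76, 1.75 and 1.73 on the Fgf5-/- arrays. Zbtb16, a transcription factor of undifferentiated spermatogonia, read 5.75, 5.59 and 5.67 on the WT arrays and 5.69, 5.59 and 5.52 on the Fgf5-/- arrays. Ret and Zbtb16 overlapped between genotypes, whereas each Gfra1 value of WT replicates 2 and 3 lay above all Fgf5-/- values and WT replicate 1 lay among them.

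Markers of other cells were present too. Neurog3, Sohlh1, Kit and Stra8 of progenitor or differentiating spermatogonia were well above background on all 6 arrays. So were Sycp3, Dmc1 and Piwil1 of spermatocytes. Kit had means of 1.84 on the WT arrays and 1.86 on the Fgf5-/- arrays. Those of Sycp3 were 3.32 and 3.44, and those of Dmc1 0.79 and 0.82. Acrv1 of spermatids and Amh of Sertoli cells were well above background on 0 arrays, and Sox9 of Sertoli cells on 3. Wt1, Star, Cyp17a1, Csf1r, Acta2, Col1a1, Pecam1, Cdh5, Lyve1, Prm1 and Tnp1 were above it on all 6, while Adgre1 and C1qa of macrophages were above it on 2 and 1, and Myh11 of smooth muscle on 2. Insl3 was not named on the array. Cyp17a1, a steroid enzyme of Leydig cells, read 0.74, 0.56 and 0.88 on the WT arrays and -1.64, 0.53 and 0.10 on the Fgf5-/- arrays. Csf1r, a receptor of macrophages, read -0.33, 0.021 and 0.20 on the WT arrays and -1.87, 0.17 and -0.12 on the Fgf5-/- arrays. Prm1, a protamine of spermatids, read 0.84, 0.76 and -0.13 on the WT arrays and -0.028, 0.77 and 2.56 on the Fgf5-/- arrays. Both Cyp17a1 and Csf1r were lowest on Fgf5-/- replicate 1, without which Csf1r differed by 0.064, and Prm1 was highest on Fgf5-/- replicate 3. Star of Leydig cells differed by 0.048 against -1.06 for Cyp17a1. Tnp1 of spermatids differed by -0.10 against 0.61 for Prm1, and was also highest on Fgf5-/- replicate 3. Fewer cells of a type and less RNA per cell cannot be told apart in these samples.

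The Fgf5 probe was well above background on 0 of 3 WT arrays and on 1 of 3 Fgf5-/- arrays, so it gave no check of the genotype. All 6 arrays lay on 1 slide and came from 1 scan. However, the 3 WT arrays lay in 1 row of the slide and the 3 Fgf5-/- arrays in another. Slide row and genotype therefore cannot be told apart.

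Fgf5-/- replicate 1 stood apart from the other arrays. It had 65.9% of its probes well above background, against 59.5%, 61.6% and 56.2% on the WT arrays and 55.3% and 55.6% on the other Fgf5-/- arrays. Its values depended on brightness: relative to the mean of the 6 arrays it was higher by 0.16 in the dimmest of 5 equal groups of tested probes and lower, at -0.27, in the brightest. The SD of a tested probe had a median of 0.13 over the WT arrays and 0.21 over the Fgf5-/- arrays, and 0.077 over the Fgf5-/- arrays without replicate 1. Results without it are given for the counts, wherever it turned the direction of a list, and for several lists and genes that it moved far.

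**Figure D1:**
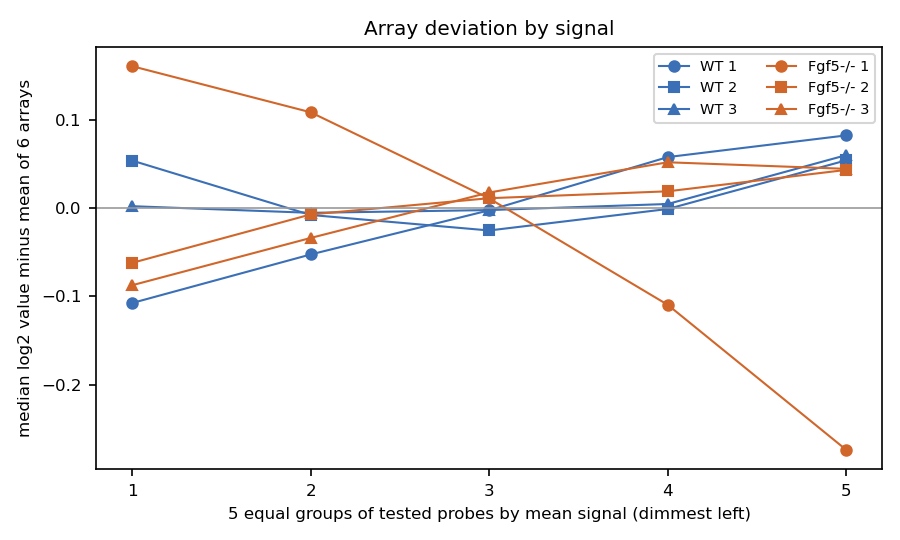
Median deviation of each sorted array from the mean of the 6 arrays (log2), for tested probes ranked into 5 equal groups by mean signal, with WT in blue and Fgf5-/- in orange. Fgf5-/- replicate 1 went from 0.16 in the dimmest group to -0.27 in the brightest, where the other 5 arrays lay above 0.

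Across 30286 tested probes, limma called 0 past an adjusted p of 0.05 (0%), with a smallest adjusted p of 0.728, and 2055 probes (6.79%) had an unadjusted p under 0.05, of which 1111 were higher and 944 lower in Fgf5-/-. The count of calls was 6 without Fgf5-/- replicate 1, 5 without Fgf5-/- replicate 3, and 1 without WT replicate 2 or without WT replicate 3. No single gene below therefore passed the test, and all values are descriptions. Genes were also counted by whether their genotypes overlapped, meaning that the 3 Fgf5-/- values did not all lie above or all below the 3 WT values.

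Without overlap, 1005 genes were higher in Fgf5-/- (6.32%) and 1541 were lower (9.69%), a balance that turned with the scaling. With quantile normalization 7.68% were higher and 6.64% lower, with the percentile over detected probes 9.3% and 6.19%, and with normexp correction 5.16% and 11.1%. Without Fgf5-/- replicate 1 the shares were 13.5% and 14.6%, where 2 arrays are compared with 3 and chance gives more. Differences of at least 2-fold were seen for 47 genes upward (0.296%) and 58 downward (0.365%), and with genes well above background on all 6 arrays for 7 and 37. The median difference over all genes was -0.037, and it was 0.0061 with quantile normalization and 0.022 with the percentile taken over detected probes, those above background on all 6 arrays.

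The 12 most increased genes that were well above background on all 6 arrays and did not overlap were dim, as were most of the decreased ones below. They ranged from 0.77 to 1.66 in difference, and all 12 had a mean signal below the 75th percentile. Wfdc13, from a cluster of whey acidic protein inhibitors of proteases, read -1.18, -2.69 and -3.16 on the WT arrays and -0.85, -0.51 and -0.70 on the Fgf5-/- arrays. Its difference was 1.66 (SE 0.48), and the WT arrays were spread more widely than the Fgf5-/- arrays. Wfdc6a and Wfdc8 of the same cluster differed by 0.90 (SE 0.20) and 0.85 (SE 0.29). Spo11, the enzyme that cuts DNA to start meiotic recombination, read -2.80, -3.21 and -3.08 on the WT arrays and -1.98, -2.33 and -2.44 on the Fgf5-/- arrays, a difference of 0.78 (SE 0.17). All Fgf5-/- values of Spo11 lay above all WT values.

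Others of the 12 were Tmem82 at 0.95, Slc49a4 at 0.88, Ano9, a lipid scramblase family member, at 0.87, and Gm10220 at 0.82, the last of which rested mostly on Fgf5-/- replicate 3 (0.35 without it). The pseudogene Vmn2r-ps104 differed by 0.95, and the uncharacterised transcripts 5430402O13Rik, 4930547M16Rik and E030004H24Rik by 1.05, 0.91 and 0.77. With normexp correction of the background the 12 differences ran from 0.37 to 1.19.

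The 12 most decreased genes chosen the same way ranged from -2.65 to -1.09, and 11 of them had a mean signal below the percentile. With normexp correction they ran from -2.02 to -0.67. Hoxb8, a homeobox factor that sets position along the body axis, read -1.86, 0.26 and -0.75 on the WT arrays and -3.21, -4.15 and -2.96 on the Fgf5-/- arrays. Its difference was -2.65 (SE 0.57), and the genotypes did not overlap although the WT arrays spanned a wide range. Cdx2, a homeobox regulator of Hox genes, read -3.72, -2.14 and -2.11 on the WT arrays and -4.01, -4.02 and -4.00 on the Fgf5-/- arrays, a difference of -1.36 (SE 0.43) in which the Fgf5-/- arrays were close to each other. Nog encodes noggin, a secreted BMP antagonist, and read -0.94, -0.69 and -0.51 on the WT arrays and -3.05, -1.14 and -1.38 on the Fgf5-/- arrays. Its difference of -1.14 (SE 0.49) was -0.55 without Fgf5-/- replicate 1.

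Lepr, the leptin receptor, read 1.57, 1.58 and 1.68 on the WT arrays and -1.08, 1.47 and 1.11 on the Fgf5-/- arrays, so that its difference of -1.11 (SE 0.64) rested on Fgf5-/- replicate 1 and was -0.32 without it. Cntfr, the receptor subunit for ciliary neurotrophic factor, differed by -1.15 (SE 0.34), with a second probe of the opposite sign. Mrgprg and Klra1, receptors studied in sensory neurons and in natural killer cells, differed by -1.65 and -1.58. The rest were the mitochondrial carrier Ucp3 at -1.16 (-0.56 without WT replicate 2), Wdr5b at -1.15 (-0.74 without WT replicate 1), the myogenic inhibitor Mdfi at -1.10, Gm4278 at -1.14, and Pmepa1 at -1.09. Most of the Pmepa1 difference rested on WT replicate 3, and without that array the same probe differed by -0.37 and the gene's other probe, then the brighter, by 0.028.

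**Figure D2:**
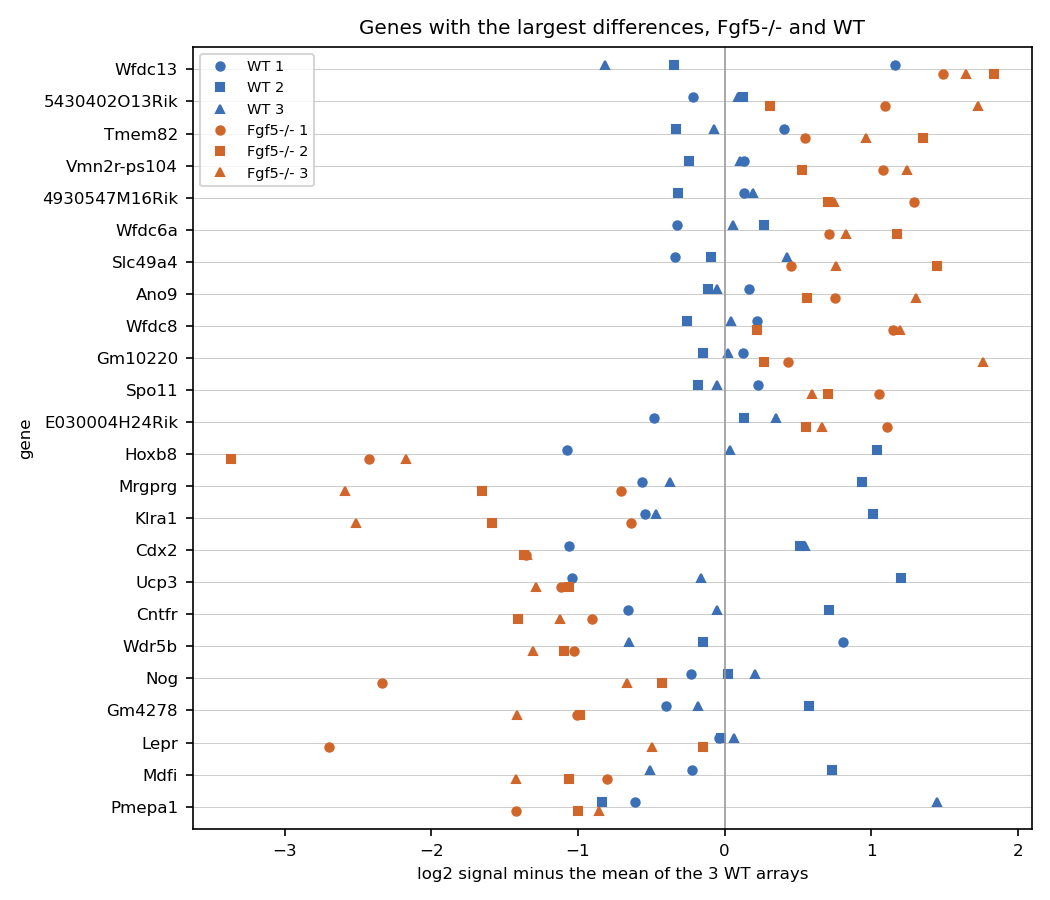
Log2 signal of the 12 most increased and 12 most decreased genes on each sorted array, minus the mean of the 3 WT arrays (WT blue, Fgf5-/- orange). Hoxb8 had the widest gap, with a difference of -2.65, and Lepr rested on Fgf5-/- replicate 1.

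Genes whose highest tested probe was well above background in a single genotype were few: 3 on the Fgf5-/- arrays and 8 on the WT arrays, although Gja5 and Fut9 among them had another probe above it. For these folds, values of the dimmer genotype were raised to at least the lowest signal called well above background on their array. The folds depended on the background correction and are no lower limits. Lrrc10b read -5.03, -5.02 and -4.96 on the WT arrays and -4.05, -2.18 and -3.47 on the Fgf5-/- arrays. It was 3.17-fold higher in Fgf5-/-. Trp53tg5 was 2.75-fold higher, although its value on Fgf5-/- replicate 1 lay among the WT values. Gja5, a gap junction subunit, was 1.89-fold higher. Its other probe, which represented it with no filter on dim probes, differed by -0.17. On the WT side, Fitm1, a lipid droplet protein, was 1.87-fold higher in WT, the protocadherin Pcdh8 1.72-fold, and the olfactory receptor Olfr220 1.91-fold. With normexp correction the log2 differences were 0.74 for Lrrc10b, 0.52 for Trp53tg5 and 0.31 for Gja5. They were then -0.48 for Fitm1, -0.42 for Pcdh8 and -0.40 for Olfr220. Fitm1 and Pcdh8 were highest on WT replicate 2. Without it their differences went from -1.05 and -0.79 to -0.58 and -0.49.

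Lists of genes with a shared role were read next, each by its counts without overlap and its median, beside 6.32% and 9.69% and a median of -0.037 over all genes. Of 39 lists, 27 had a median below that of all genes (36 below 0), and Fgf5-/- replicate 1 was the lowest of the 6 arrays in 30. Many of these medians turned above 0 with quantile normalization or without Fgf5-/- replicate 1, as given for each list below. The median over all genes then also turned, to 0.0061 and 0.0057. In 12 lists all 3 Fgf5-/- levels lay below all 3 WT levels, and in 0 lists all lay above, where a level is the median over members of the value minus its mean over the arrays.

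**Figure D3:**
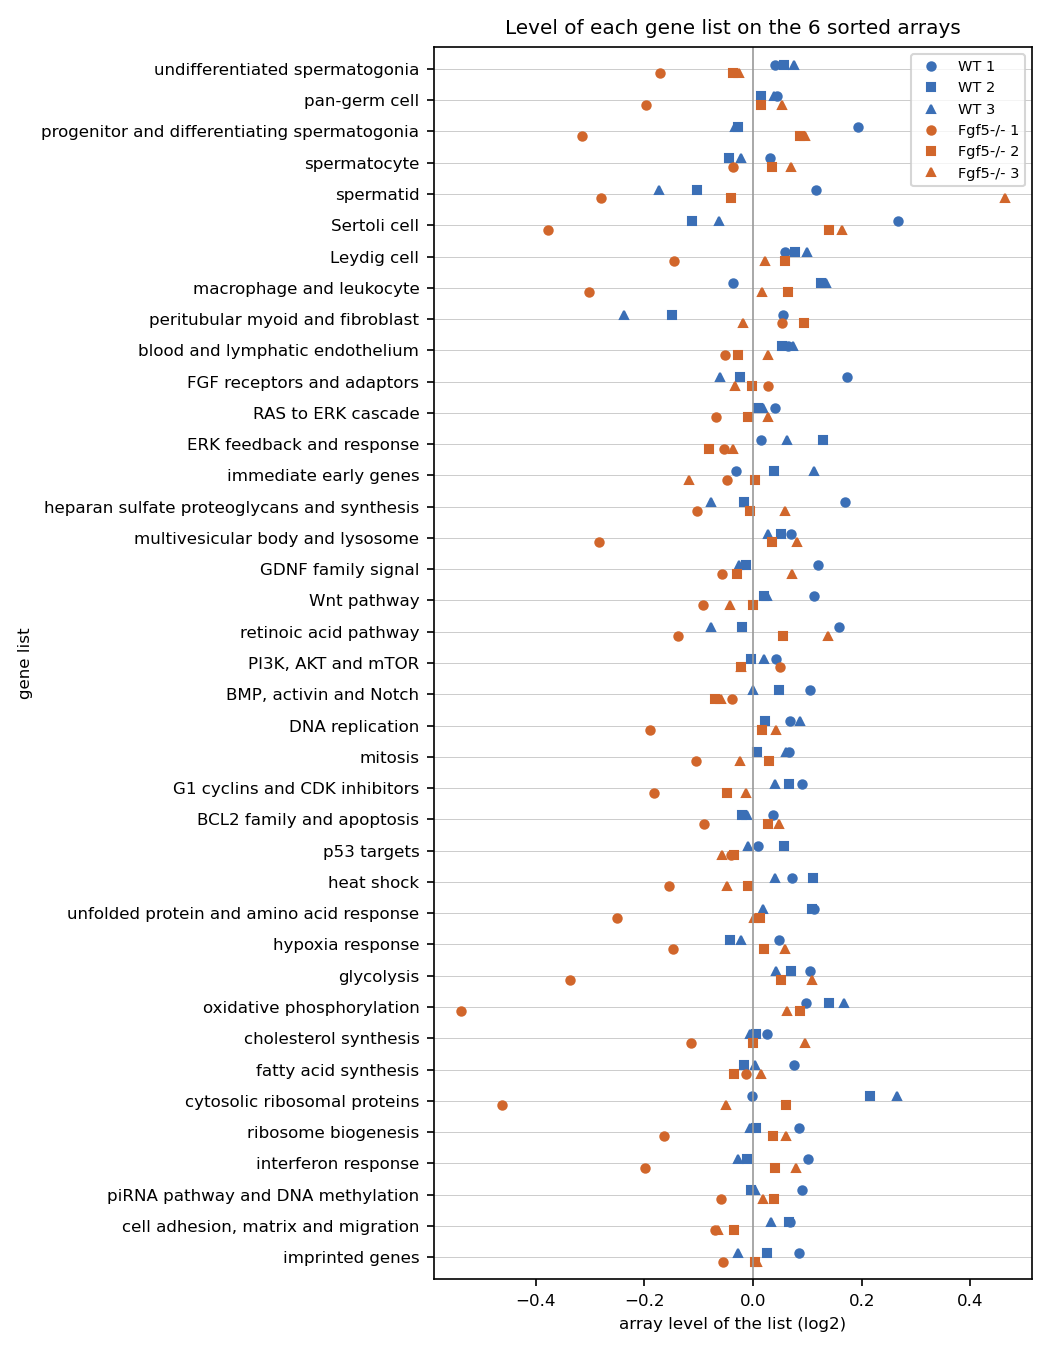
Level of each gene list on each sorted array, as the median over members of the log2 value minus its mean over the 6 arrays (WT blue, Fgf5-/- orange). In 12 of 39 lists the 3 Fgf5-/- levels lay below the 3 WT levels, and Fgf5-/- replicate 1 was lowest in 30.

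Identity genes of undifferentiated spermatogonia had 14 of 37 tested members lower without overlap and 1 higher, with a median of -0.13. The list level was 0.040, 0.057 and 0.076 on the WT arrays and -0.17, -0.036 and -0.026 on the Fgf5-/- arrays. With quantile normalization there were 5 lower and 3 higher (6.64% and 7.68% over all genes), and without Fgf5-/- replicate 1 17 lower and 4 higher (14.6% and 13.5%). Cdh1, the cadherin that marks these cells at their surface, read -0.033, 0.21 and 0.20 on the WT arrays and -0.55, -0.26 and -0.27 on the Fgf5-/- arrays, a difference of -0.49 (SE 0.13) with all Fgf5-/- values below all WT values. Cd82, a tetraspanin, read 3.17, 3.48 and 3.25 on the WT arrays and 2.80, 2.87 and 3.07 on the Fgf5-/- arrays, a difference of -0.39 (SE 0.13). Smoc2, a secreted matrix protein, and Id3, an inhibitor of helix-loop-helix factors, differed by -0.31 (SE 0.11) and -0.40 (SE 0.16). The brightest member, Mcam, differed by 0.056 and overlapped, and its other probe had the opposite sign.

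In culture with FGF5 against without, described here with no test, Cd82 was higher by 2.07, Id3 by 0.59 and Smoc2 by 0.36, and Cdh1 differed by -0.063. Each culture condition had 2 arrays. Cd82 read 2.32 and 3.45 with FGF5 and 0.81 and 0.82 without. Smoc2 read 3.02 and 3.67 with FGF5 and 2.85 and 3.13 without. The list median in culture was 0.028.

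Genes found in germ cells in general had 3 of 17 members lower and 0 higher. With quantile normalization 0 were lower and 2 higher (6.64% and 7.68% over all genes). The median of -0.10 turned to 0.029 with quantile normalization and 0.017 without Fgf5-/- replicate 1. Tex101, a germ cell surface protein, differed by -0.33 (SE 0.16, or -0.18 without that array). Progenitor and differentiation genes had 2 of 20 lower and 0 higher, with a median of -0.040 that turned to 0.017 with quantile normalization, 0.019 with the percentile over detected probes and 0.075 without Fgf5-/- replicate 1. Rhox13, an X-linked homeobox gene of spermatogonia, read 3.06, 3.07 and 3.13 on the WT arrays and 2.17, 2.92 and 2.88 on the Fgf5-/- arrays, and Ccnd1, cyclin D1, read 3.15, 3.17 and 3.23 on the WT arrays and 2.75, 2.99 and 3.02 on the Fgf5-/- arrays. Both were below all WT values on every Fgf5-/- array, by -0.43 (SE 0.21, or -0.19 without Fgf5-/- replicate 1) and -0.26 (SE 0.11). Sohlh1, the brightest member and a driver of differentiation, differed by -0.00095 and overlapped.

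Later germ cell stages were read next. Spermatocyte genes had 4 of 26 members higher and 1 lower, with a median of 0.040 that was -0.00058 with normexp correction. Besides Spo11 the higher members were Hormad2, a protein of unpaired meiotic axes, at 0.31, Piwil1, a PIWI protein of spermatocytes, at 0.29 (0.17 without Fgf5-/- replicate 1), and Mei1 at 0.24. Spermatid genes had 1 of 21 members higher, Izumo1 of sperm and egg fusion at 0.44, and 0 lower. The median was 0.12, with levels of 0.12, -0.10 and -0.17 on the WT arrays and -0.28, -0.040 and 0.46 on the Fgf5-/- arrays. Those levels overlapped, with the highest on Fgf5-/- replicate 3 and the lowest on Fgf5-/- replicate 1, and the median ran from -0.12 to 0.28 as each array was left out.

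Markers of somatic cells were read the same way. Sertoli genes had 2 of 16 members lower and 0 higher, with a median of -0.11 that turned to 0.12 without Fgf5-/- replicate 1. Trf, the iron carrier transferrin, read 3.25, 3.19 and 3.23 on the WT arrays and 2.13, 2.89 and 2.83 on the Fgf5-/- arrays and differed by -0.61 (SE 0.21), or by -0.36 without that array. Leydig genes had 2 of 8 lower and 0 higher, Cyp17a1 at -1.06 (-0.41 without Fgf5-/- replicate 1) and Cyp21a1 at -0.37, with a median of -0.093 that turned to 0.018 without Fgf5-/- replicate 1. Macrophage genes had 1 of 8 lower and 0 higher, the mannose receptor Mrc1 at -0.30, with a median of -0.12 (-0.043 without Fgf5-/- replicate 1). Endothelial genes had 1 of 15 lower and 0 higher, Sox18 at -0.18, with a median of -0.15 (-0.037 without that array).

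Peritubular and fibroblast genes had 3 of 13 members higher and 1 lower, with a median of 0.026 that turned to -0.058 with the probes of a gene averaged and ran from -0.039 to 0.13 as each array was left out. Col3a1, a fibrillar collagen, lay between -5.09 and -4.87 on the WT arrays, read -3.62, -3.13 and -2.31 on the Fgf5-/- arrays, and was well above background on 1 WT array and on 3 Fgf5-/- arrays. Its difference was 1.96 (SE 0.32), or 0.87 with normexp correction, and it passed the filter through the genotype in which it was high. Col6a1, another collagen, and Cnn1, a smooth muscle protein, were higher by 0.54 and 0.46, and Fbln1, a matrix protein, differed by -0.32.

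FGF receptors and their adaptors had 1 of 16 members lower, the adaptor Shc1 at -0.20, and 0 higher. Their median was -0.041 and turned to 0.016 with quantile normalization and 0.018 with the percentile over detected probes. The cascade from RAS to ERK had 4 of 22 lower and 1 higher, with a median of -0.070. With quantile normalization its median was -0.0034, with 2 lower and 1 higher (6.64% and 7.68% over all genes). The median was -0.011 with the percentile over detected probes. The kinase Map2k2 and the scaffold Ksr1 differed by -0.21 and 0.20, and by -0.076 and 0.048 without Fgf5-/- replicate 1. Ksr2, another scaffold, differed by -0.28 with a probe of the opposite sign.

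Feedback and response genes of ERK signalling, apart from the known targets, had 7 of 20 members lower and 0 higher, with a median of -0.14 that ran from -0.14 to -0.069 as each array was left out. The list level was 0.015, 0.13 and 0.062 on the WT arrays and -0.054, -0.080 and -0.037 on the Fgf5-/- arrays, so the genotypes did not overlap. With quantile normalization there were 2 lower and 0 higher (6.64% and 7.68% over all genes), with normexp correction 4 lower and 0 higher (11.1% and 5.16%), and without Fgf5-/- replicate 1 8 lower and 2 higher (14.6% and 13.5%). Phlda1, induced by growth factors, read 0.85, 1.46 and 1.29 on the WT arrays and 0.83, 0.79 and 0.73 on the Fgf5-/- arrays, a difference of -0.42 (SE 0.17). WT replicate 1 lay close to the Fgf5-/- values, as it did for Ets1. Ets1, a transcription factor that ERK phosphorylates, Fosl1, a partner of JUN, and Il17rd, a membrane inhibitor of FGF signalling, differed by -0.25 (SE 0.12), -0.24 (SE 0.11) and -0.20 (SE 0.12).

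In culture with FGF5 against without, the median of this list was 0.52, against -0.014 over all genes, and Phlda1 differed by 2.18, Fosl1 by 0.71, Il17rd by 0.59, Ets1 by 0.15 and Errfi1, the brightest member, by -0.15. No test compared culture with the sorted cells.

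Immediate early genes, which respond to signals within minutes, had 2 of 19 members lower, 0 higher and a median of -0.10 that ran from -0.14 to -0.035 as each array was left out. Atf3, a stress-induced transcription factor, read -2.24, -2.06 and -1.33 on the WT arrays and -2.57, -2.62 and -2.72 on the Fgf5-/- arrays, a difference of -0.76 (SE 0.24). All its Fgf5-/- values lay below all WT values. WT replicate 3 was the highest, and without it the Atf3 difference was -0.49. Genes for heparan sulfate, the sugar chains that hold FGFs near their receptors, had 1 of 27 higher and 1 lower. The sulfotransferase Ndst3 was higher by 0.76 (0.47 without WT replicate 2 and 0.15 with normexp correction). Ndst3 was above background on 1 WT array and passed the filter through the genotype in which it was high. Ext1 was lower, at -0.11 (-0.060 without Fgf5-/- replicate 1). The list median was -0.024 and turned to 0.043 with quantile normalization, 0.035 with the percentile over detected probes and 0.022 without Fgf5-/- replicate 1.

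Genes of multivesicular bodies and lysosomes, where receptors are taken down, had 4 of 33 members lower, 0 higher and a median of -0.13 that turned to 0.023 without Fgf5-/- replicate 1. The tetraspanin Cd63, the lysosome regulator Tfeb, the protease Ctsd and the sorting subunit Snf8 differed by -0.36, -0.36, -0.34 and -0.32, and without that array by -0.25, -0.35, -0.14 and -0.16. GDNF signalling genes had 2 of 12 lower and 1 higher, the co-receptor Gfra2 at -0.24 and the scaffold Shank3 at 0.16. Their median was -0.0017 and turned to 0.058 with the percentile over detected probes and 0.0040 without Fgf5-/- replicate 1.

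Wnt pathway genes had 7 of 39 members lower and 1 higher, with a median of -0.069 that ran from -0.13 to -0.035 as each array was left out, and with quantile normalization there were 7 lower and 1 higher (6.64% and 7.68% over all genes). Fzd6, a Wnt receptor, read -3.15, -3.53 and -3.56 on the WT arrays and -2.94, -3.05 and -2.78 on the Fgf5-/- arrays. Its difference was 0.49 (SE 0.15) with no overlap, and 0.18 with normexp correction. Another receptor, Fzd10, differed by -0.48 (SE 0.11). Gsk3b, the kinase that marks beta-catenin for destruction, differed by -0.41 (SE 0.15). Tcf7l2, a nuclear partner of beta-catenin, differed by -0.53, but its probes differed in sign, and with normexp correction another probe represented it at 0.011 while the same probe gave -0.45.

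Genes of BMP, activin and Notch signalling had 8 of 31 members lower and 0 higher, with a median of -0.13 that ran from -0.16 to -0.039 as each array was left out. With quantile normalization there were 8 lower and 1 higher (6.64% and 7.68% over all genes), with normexp correction 11 lower and 0 higher (11.1% and 5.16%), and without Fgf5-/- replicate 1 11 lower and 1 higher (14.6% and 13.5%). Hes1, a Notch target, read -0.82, -0.70 and -0.74 on the WT arrays and -0.91, -1.16 and -1.19 on the Fgf5-/- arrays, a difference of -0.33 (SE 0.12). Smad7, an inhibitor induced by TGF-beta family signals, read 0.85, 1.01 and 0.80 on the WT arrays and 0.65, 0.62 and 0.62 on the Fgf5-/- arrays, a difference of -0.26 (SE 0.10). Neither overlapped between genotypes. The ligand Tgfb1 differed by -0.33 (SE 0.12), and Id3, a BMP target, is given above.

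Retinoic acid genes had 2 of 18 members lower and 0 higher, the retinal reductase Dhrs3 at -0.43 (-0.24 without Fgf5-/- replicate 1) and the retinal dehydrogenase Aldh1a3 at -0.24. Their median was -0.0039 and turned to 0.013 with quantile normalization, 0.055 with the percentile over detected probes and 0.015 without Fgf5-/- replicate 1. The PI3K, AKT and mTOR list had 3 of 30 lower and 1 higher, with a median of -0.028 that turned to 0.020 with quantile normalization and 0.031 with the percentile over detected probes. Eif4ebp1, which holds back translation until mTOR phosphorylates it, read 5.09, 4.96 and 5.06 on the WT arrays and 4.13, 4.79 and 4.76 on the Fgf5-/- arrays, a difference of -0.48 (SE 0.20) that was -0.26 without Fgf5-/- replicate 1.

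**Figure D4:**
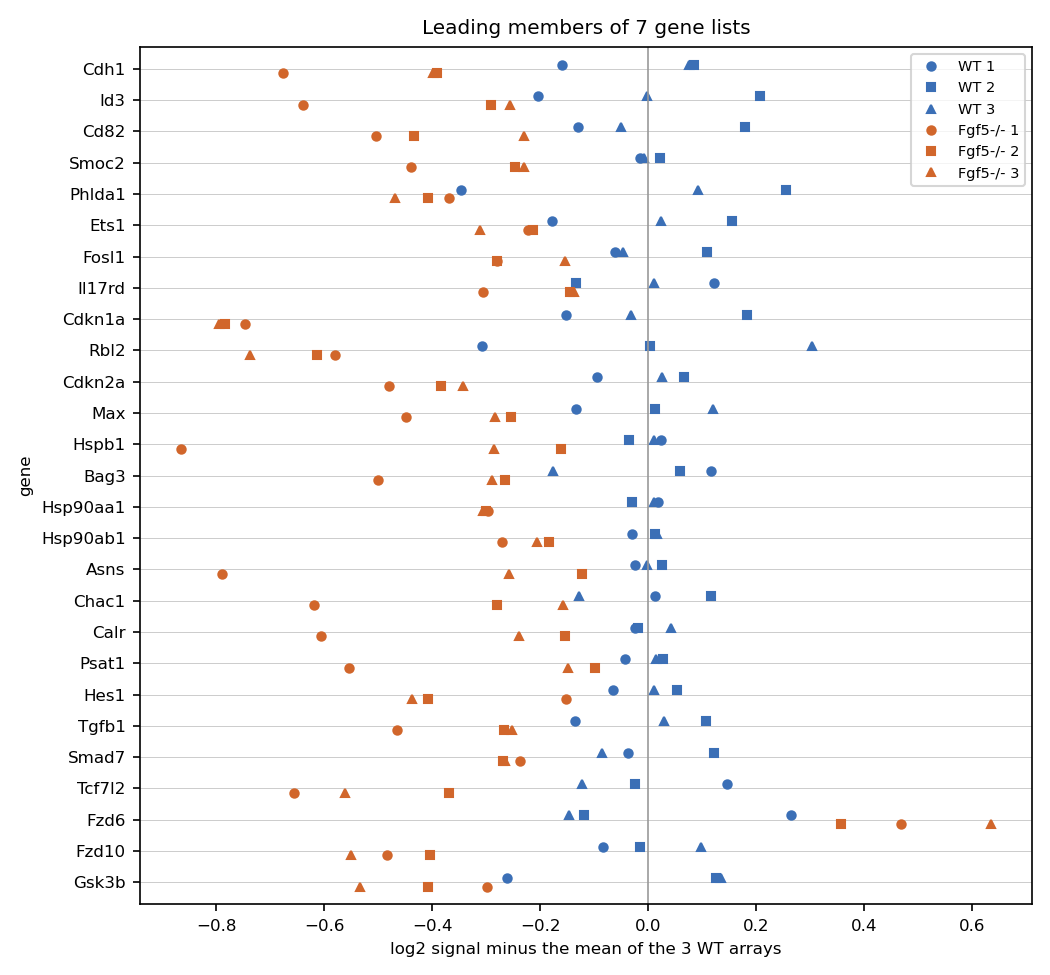
Log2 signal of the leading members of 7 gene lists on each sorted array, minus the mean of the 3 WT arrays (WT blue, Fgf5-/- orange). Cdkn1a differed by -0.78 with the Fgf5-/- arrays close together, and Fzd6 was higher by 0.49 (0.18 with normexp correction).

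Genes that gate entry into the cell cycle had 8 of 27 members lower and 2 higher, with a median of -0.13, and with quantile normalization there were 8 lower and 2 higher (6.64% and 7.68% over all genes). Cdkn1a, the CDK inhibitor p21, read -0.89, -0.56 and -0.77 on the WT arrays and -1.48, -1.52 and -1.53 on the Fgf5-/- arrays. Its difference was -0.78 (SE 0.12), and the 3 Fgf5-/- values lay close together and below all WT values. Cdkn2a, another inhibitor locus, read 4.19, 4.35 and 4.31 on the WT arrays and 3.80, 3.90 and 3.94 on the Fgf5-/- arrays, a difference of -0.40 (SE 0.10) with no overlap. Max, the partner of MYC, and Rbl2, a pocket protein that holds back E2F, differed by -0.33 (SE 0.12) and -0.64 (SE 0.17), and Rbl2 was well above background on 1 of 3 Fgf5-/- arrays.

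DNA replication genes had 9 of 37 members lower and 1 higher, with a median of -0.13 that turned to 0.024 with quantile normalization, with 1 lower and 2 higher (6.64% and 7.68% over all genes), and was -0.025 without Fgf5-/- replicate 1. Mcm5, a subunit of the replicative helicase, differed by -0.21 (SE 0.16, or -0.054 without Fgf5-/- replicate 1), and the polymerase Pole by 0.22 (SE 0.10). Mitosis genes had 6 of 34 lower and 0 higher. Their median of -0.089 turned to 0.019 with quantile normalization and was -0.037 without Fgf5-/- replicate 1. With quantile normalization 0 of them were lower and 2 higher (6.64% and 7.68% over all genes). Prc1, which bundles the midzone microtubules, and Top2a, a topoisomerase, differed by -0.17 and -0.13.

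Genes of the BCL2 family and apoptosis had 1 of 29 members lower and 1 higher. The killer Bcl2l11 was lower, at -0.28 (-0.10 without Fgf5-/- replicate 1), with another probe of the opposite sign. Casp8 was higher by 0.28, which ran from 0.17 to 0.39 as each array was left out. The list median was -0.045 and turned to 0.072 with quantile normalization, 0.014 with the percentile over detected probes and 0.028 without Fgf5-/- replicate 1. Targets of p53 had 1 of 22 lower, Cdkn1a, and 2 higher, among them the polymerase Polk at 0.30, with a median of -0.084 (-0.040 without that array).

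Heat shock genes had 8 of 20 members lower and 0 higher, with a median of -0.13 that was -0.0065 with quantile normalization, with 3 lower and 2 higher (6.64% and 7.68% over all genes), and -0.061 without Fgf5-/- replicate 1. Hsp90aa1, an inducible chaperone, read 6.59, 6.54 and 6.58 on the WT arrays and 6.28, 6.27 and 6.27 on the Fgf5-/- arrays, a difference of -0.30 (SE 0.091). Its values did not overlap between genotypes, and its difference was -0.081 with quantile normalization. The small chaperone Hspb1 and its partner Bag3 differed by -0.44 (SE 0.19, or -0.22 without Fgf5-/- replicate 1) and -0.35 (SE 0.13). Hsp90ab1 differed by -0.22 and turned to 0.030 with quantile normalization.

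Genes of the unfolded protein and amino acid response had 6 of 29 members lower and 0 higher, with a median of -0.19 and levels of 0.11, 0.11 and 0.018 on the WT arrays and -0.25, 0.013 and 0.0011 on the Fgf5-/- arrays. The median was -0.084 without Fgf5-/- replicate 1. Asns, which makes asparagine, read 3.24, 3.29 and 3.26 on the WT arrays and 2.47, 3.14 and 3.01 on the Fgf5-/- arrays, a difference of -0.39 (SE 0.18). Calr, a calcium-binding chaperone of the endoplasmic reticulum, read 3.77, 3.78 and 3.84 on the WT arrays and 3.19, 3.64 and 3.56 on the Fgf5-/- arrays, a difference of -0.33 (SE 0.14). In both genes Fgf5-/- replicate 1 was the lowest array by a wide margin, and without it they differed by -0.19 and -0.20. Chac1 and Psat1, targets of the factor ATF4, differed by -0.35 and -0.27 (-0.22 and -0.12 without that array), and Pdia6, a disulfide isomerase and the brightest member, by -0.19, which was 0.00047 with quantile normalization.

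Promoters of this list are shown because an element recurred in them. The ER stress element, CCAAT and CCACG with 9 bases between them on either strand, was found by a search of RefSeq promoters (build GRCm38.p6, 300 bases each) in 7 of 26 members with a promoter, among them 3 of the 6 lower without overlap, and in 0.119% of all 32851 promoters (0.137% of genes). The other carriers, Canx, Creld2, Dnajc3 and Hspa5, overlapped between genotypes. Members were listed for their part in this response, so these shares compare the list with all promoters and not the genotypes. The element was chosen after the values of the list were seen, and a match is a description of the sequence. Capitals mark it in Calr (chr8:84846882-84847181 on the minus strand), Hsp90b1 (chr10:86705395-86705694 on the minus strand) and Pdia6 (chr12:17266339-17266638 on the plus strand).
Calr: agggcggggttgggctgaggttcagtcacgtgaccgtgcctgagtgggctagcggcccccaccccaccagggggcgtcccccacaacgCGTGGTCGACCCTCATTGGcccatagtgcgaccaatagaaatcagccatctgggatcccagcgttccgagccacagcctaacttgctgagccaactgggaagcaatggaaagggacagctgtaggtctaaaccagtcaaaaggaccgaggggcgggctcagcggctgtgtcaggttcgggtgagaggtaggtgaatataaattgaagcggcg
Hsp90b1: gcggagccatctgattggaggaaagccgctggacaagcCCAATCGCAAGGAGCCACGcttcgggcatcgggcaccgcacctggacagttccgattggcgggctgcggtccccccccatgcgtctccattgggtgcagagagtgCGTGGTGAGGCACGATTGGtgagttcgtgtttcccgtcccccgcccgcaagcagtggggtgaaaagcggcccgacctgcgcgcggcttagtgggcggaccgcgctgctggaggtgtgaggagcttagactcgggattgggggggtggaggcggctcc
Pdia6: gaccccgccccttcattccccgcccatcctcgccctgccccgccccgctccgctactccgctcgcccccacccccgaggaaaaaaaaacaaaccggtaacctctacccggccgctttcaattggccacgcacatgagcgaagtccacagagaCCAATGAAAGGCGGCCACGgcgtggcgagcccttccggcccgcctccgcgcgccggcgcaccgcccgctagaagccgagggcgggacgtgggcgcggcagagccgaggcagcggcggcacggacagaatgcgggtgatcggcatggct

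Other lists had a motif searched the same way. The heat shock element, GAA, TTC and GAA each 2 bases apart, was found in 4 of 15 heat shock members. It was found in 0.662% of genes (0.603% of promoters). Of the 4 members, Hspd1 alone was lower without overlap. Hspe1, which overlapped between genotypes, carried the same bases read on the opposite strand, so both share their site. The ETS motif CCGGAAG was found in 0 of 16 ERK feedback members against 9.93% of genes (8.86% of promoters), and GGCGCC, a GC-rich SMAD motif, in 5 of 23 BMP, activin and Notch members against 13.4% of genes (11.9% of promoters).

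Energy genes were read with Fgf5-/- replicate 1 in mind. Oxidative phosphorylation had 13 of 43 members lower and 0 higher, with a median of -0.25. With quantile normalization 6 were lower and 0 higher (6.64% and 7.68% over all genes). All 43 had a lower mean in Fgf5-/-, as did 9276 of the 15898 genes. The list level was 0.10, 0.14 and 0.17 on the WT arrays and -0.54, 0.087 and 0.062 on the Fgf5-/- arrays, and the median was -0.059 without Fgf5-/- replicate 1 and -0.084 with quantile normalization. Uqcrq, a subunit of complex III, read 5.52, 5.78 and 5.79 on the WT arrays and 4.97, 5.51 and 5.46 on the Fgf5-/- arrays, a difference of -0.38 (SE 0.18, or -0.21 without that array). Ndufb5 and Ndufa1 of complex I and Atp5g1 of the ATP synthase differed by -0.42, -0.37 and -0.37, and without that array by -0.11, -0.19 and -0.12. Without Fgf5-/- replicate 1, 13 of 43 members were lower and 1 higher (14.6% and 13.5% over all genes). These members are bright, and bright probes as a whole were lower on that array. Whether brightness bears on the difference of this list was not tested.

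Glycolysis genes had 4 of 25 members lower and 2 higher, with a median of -0.12 that was -0.0039 without Fgf5-/- replicate 1. Eno1, enolase, read 6.09, 6.02 and 6.01 on the WT arrays and 4.92, 5.63 and 5.41 on the Fgf5-/- arrays. Its difference was -0.72 (SE 0.19) with no overlap, and -0.52 without Fgf5-/- replicate 1. The regulator Pfkfb2 was higher by 0.35 (0.21 without that array), and Pkm, pyruvate kinase, differed by -0.29, or by -0.16 without that array. Hypoxia response genes had 2 of 19 lower and 0 higher, among them the peptide Adm at -0.42, which was above background on 2 Fgf5-/- arrays and passed through WT, and a median of -0.026 that turned to 0.039 with quantile normalization, 0.033 with the percentile over detected probes and 0.016 without Fgf5-/- replicate 1.

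Cholesterol synthesis had 2 of 26 members higher, the cyclase Lss at 0.20 (0.11 without Fgf5-/- replicate 1), and 1 lower, Hmgcs1 at -0.18, with a median of -0.015 that turned to 0.042 with quantile normalization, 0.044 with the percentile over detected probes and 0.053 without Fgf5-/- replicate 1. Fatty acid synthesis had 2 of 21 higher, among them the carboxylase Acacb at 0.32 (0.10 without Fgf5-/- replicate 1), and 3 lower, among them Agpat1 at -0.27. Its median of -0.0059 turned to 0.060 with quantile normalization and 0.053 with the percentile over detected probes.

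Cytosolic ribosomal proteins had 9 of 39 members lower and 0 higher, with a median of -0.33. Their level was -0.00094, 0.22 and 0.27 on the WT arrays and -0.46, 0.060 and -0.049 on the Fgf5-/- arrays, and WT replicate 1 lay among the Fgf5-/- arrays. The median was -0.069 with quantile normalization and -0.16 without Fgf5-/- replicate 1. Rps24 read 7.91, 8.11 and 8.15 on the WT arrays and 7.51, 7.80 and 7.56 on the Fgf5-/- arrays, a difference of -0.43 (SE 0.13). Ribosome biogenesis had 5 of 30 lower and 1 higher. Its median of -0.064 turned to 0.042 with quantile normalization and 0.015 without Fgf5-/- replicate 1. With quantile normalization 1 was lower and 3 higher (6.64% and 7.68% over all genes). Without that array 5 were lower and 6 higher (14.6% and 13.5% over all genes). The methyltransferase Fbl differed by -0.19, or by -0.016 with quantile normalization.

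Interferon response genes had 1 of 34 members lower and 0 higher, the RNA sensor Ifih1 at -0.27 (-0.13 without Fgf5-/- replicate 1), and a median of -0.027 that turned to 0.032 with the percentile over detected probes and 0.040 without Fgf5-/- replicate 1. Genes of the piRNA pathway and DNA methylation had 4 of 30 lower and 1 higher, Piwil1, with a median of -0.051 that turned to 0.033 with quantile normalization, 0.0078 with the percentile over detected probes and 0.013 without Fgf5-/- replicate 1. Gtsf1, a piRNA cofactor, and the enzymes Tet1 and Dnmt1 differed by -0.25 (-0.042 without that array), -0.18 and -0.17.

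Genes of cell adhesion, matrix and migration had 13 of 38 members lower and 0 higher, with a median of -0.12. The list level was 0.069, 0.066 and 0.033 on the WT arrays and -0.070, -0.034 and -0.064 on the Fgf5-/- arrays, with no overlap between genotypes. With quantile normalization there were 7 lower and 0 higher (6.64% and 7.68% over all genes), and without Fgf5-/- replicate 1 17 lower and 1 higher (14.6% and 13.5%). Besides Cdh1, Cdh3, another classical cadherin, read 0.33, 0.88 and 0.63 on the WT arrays and 0.19, 0.086 and 0.19 on the Fgf5-/- arrays, a difference of -0.46 (SE 0.16). The integrin subunit Itgb5 read 3.52, 3.62 and 3.77 on the WT arrays and 3.29, 3.39 and 3.27 on the Fgf5-/- arrays, a difference of -0.32 (SE 0.11), and like Cdh3 did not overlap. Efnb1, a membrane-bound ephrin, differed by -0.48 (SE 0.14).

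Imprinted genes had 5 of 27 members lower and 2 higher, with a median of -0.024 that turned to 0.035 with the percentile over detected probes. Mest, expressed from the paternal allele, read 1.44, 1.54 and 1.49 on the WT arrays and 0.98, 1.21 and 1.19 on the Fgf5-/- arrays, a difference of -0.36 (SE 0.11) with no overlap. Gnas, a G protein subunit, Plagl1, a zinc finger factor, and the noncoding H19 differed by -0.41, -0.39 and -0.34 (-0.17 for H19 without Fgf5-/- replicate 1), with another Plagl1 probe of the opposite sign. Rasgrf1, an exchange factor for RAS, was higher by 0.49 (SE 0.12), with another probe of the opposite sign.

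**Figure D5:**
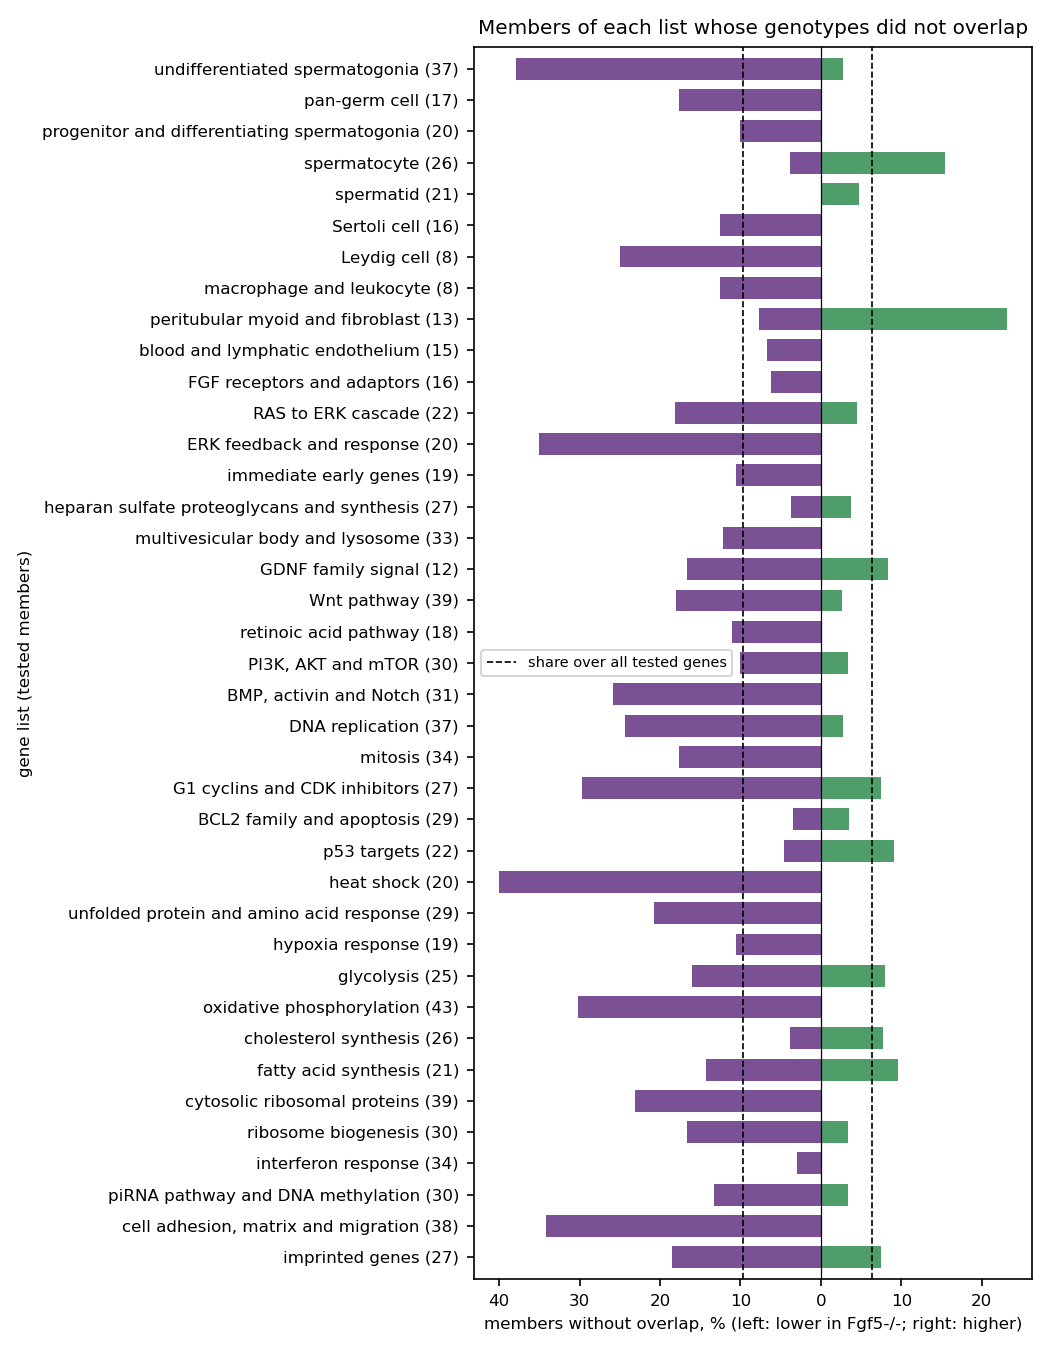
Percent of tested members of each gene list whose genotypes did not overlap, lower in Fgf5-/- to the left and higher to the right, with the number of tested members in brackets. Dashed lines give the shares over all tested genes, 9.69% lower and 6.32% higher.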

How the data were processed

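Gene expression was measured on 1-colour Agilent whole mouse genome arrays, 1 array per sample. The scanner output that the authors deposited holds background-subtracted spot signals in units of intensity, made by Feature Extraction, whose version is 10.7.1.1 in the file headers and 10.7.3.1 in the labels. In the normalized table deposited by the authors, signals are in log2 units less an array's 75th percentile. All its sample columns were used, the sorted ones as an alternative to the recomputed values and the culture ones beside named genes.

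Recomputing used limma 3.58.1 on R 4.3.3, with files read by data.table (version 1.17.8). The floor on signals was 1 (0 lay under it). Spots that the scanner software called non-uniform or an outlier of their population were dropped. A probe took the mean of its remaining spots, less the 75th percentile of the 59305 non-control spots of its array. Of 55681 probes, 33048 carried a gene name, 27509 of them through a RefSeq accession. A probe counted as well above background where at least 0.5 of its spots were, and 30286 probes were tested, of which 11 had an outlier spot on an array and were fitted on the others. Genotypes were fitted by lmFit and eBayes, p-values were two-sided, and the Benjamini-Hochberg level was 0.05. The code was tested on simulated data. A gene was represented by its tested probe with the highest mean. Figures were drawn with Python 3.11.15 and matplotlib 3.10.9.

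Genes were named by a rule: the 12 most increased and 12 most decreased genes without overlap that were well above background on all 6 arrays, the 3 brightest genes in each direction that were above background in 1 genotype alone, up to 4 members without overlap and the brightest member of each list, and 35 cell type markers. The members and the 39 lists were chosen with earlier results of these data known. The 19 targets known from culture and genes within 10 Mb of the Fgf5 probe were left out. Folds for genes above background in 1 genotype used the lowest signal called well above background on each array as the floor. Alternatives were quantile normalization, normexp correction with an offset of 50, the authors' table, the percentile over detected probes, other filters, an intensity trend, a replicate block, leaving out each array, and averaging the probes of a gene. The 4 promoter motifs searched were chosen after the values were seen, and all 4 are given. The result of 1 named gene under an alternative is not reported here.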

Additional observations from a re-analysis of the deposited data

How the results depend on the processing

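With each of the 9 settings that kept all arrays, limma called 0 probes past an adjusted p of 0.05 (smallest adjusted p from 0.274 to 0.968, 1561 to 2243 probes at an unadjusted p under 0.05), and 0 to 6 were called when 1 array was left out. Genes without overlap were fewer in the lower direction with the percentile over detected probes (1478 higher, 984 lower) and with quantile normalization (1221 and 1056), so the balance turned. In the replicate block, which counts differences within replicate numbers, 1925 were higher and 2772 lower. The samples share only a number: values of equal number correlated at -0.42, -0.16 and -0.15 across genes after each genotype's mean was removed, so they were not paired. As each array was left out, 1285 to 2390 genes were higher and 2143 to 2588 lower without overlap, and 47 to 154 were at least 2-fold higher and 70 to 196 lower. Genes of at least 2-fold numbered 6 higher and 20 lower with normexp correction, 7 and 37 with the stricter filter, and 525 and 433 with no filter on dim probes. The median over all genes was -0.0095 with no filter.

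With quantile normalization the list medians that moved by more than the spread between arrays were 0.072 for BCL2 family and apoptosis, 0.024 for DNA replication, -0.055 for G1 cyclins and CDK inhibitors, 0.020 for PI3K, AKT and mTOR, -0.0034 for RAS to ERK cascade, -0.047 for blood and lymphatic endothelium, -0.053 for cell adhesion, matrix and migration, -0.069 for cytosolic ribosomal proteins, 0.060 for fatty acid synthesis, -0.0065 for heat shock, 0.019 for mitosis, -0.013 for p53 targets, 0.029 for pan-germ cell, 0.033 for piRNA pathway and DNA methylation, 0.042 for ribosome biogenesis and -0.066 for undifferentiated spermatogonia. With the percentile over detected probes they were 0.014 for BCL2 family and apoptosis, -0.074 for BMP, activin and Notch, -0.084 for ERK feedback and response, 0.031 for PI3K, AKT and mTOR, -0.011 for RAS to ERK cascade, -0.0095 for Wnt pathway, -0.093 for blood and lymphatic endothelium, -0.060 for cell adhesion, matrix and migration, 0.053 for fatty acid synthesis, -0.067 for heat shock, 0.035 for imprinted genes, -0.030 for mitosis, -0.025 for p53 targets, 0.0078 for piRNA pathway and DNA methylation, 0.10 for spermatocyte and -0.068 for undifferentiated spermatogonia. With normexp correction they were -0.12 for RAS to ERK cascade, -0.16 for cell adhesion, matrix and migration and -0.065 for fatty acid synthesis. With no filter they were 0.042 for Leydig cell and -0.0045 for blood and lymphatic endothelium. With the probes of a gene averaged the median moved was -0.058 for blood and lymphatic endothelium.

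Over the arrays left out, the medians that moved ran from -0.075 to 0.028 for BCL2 family and apoptosis, -0.16 to -0.039 for BMP, activin and Notch, -0.17 to -0.025 for DNA replication, -0.14 to -0.069 for ERK feedback and response, -0.18 to 0.018 for Leydig cell, -0.13 to -0.035 for Wnt pathway, -0.16 to -0.037 for blood and lymphatic endothelium, -0.15 to -0.085 for cell adhesion, matrix and migration, -0.056 to 0.013 for fatty acid synthesis, -0.19 to -0.061 for heat shock, -0.086 to 0.013 for imprinted genes, -0.18 to 0.023 for multivesicular body and lysosome, -0.11 to -0.040 for p53 targets, -0.11 to 0.017 for pan-germ cell and -0.094 to 0.013 for piRNA pathway and DNA methylation.

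Of the named genes without overlap, those that turned in direction were Ccnb2 (0.012), Higd1a (0.029), Hsp90ab1 (0.030), Incenp (0.059), Lig1 (0.011), Mcm6 (0.049), Pdia6 (0.00047) and Tex19.1 (0.030) with quantile normalization, Aen (-0.011) and Tcf7l2 (0.011) with normexp correction, Ncam1 (0.033) with the probes of a gene averaged, and Gja5 (-0.17) with no filter. Over the arrays left out Gja5 ran from -0.23 (without WT replicate 3) to 1.93, with -0.096 without Fgf5-/- replicate 2, Pmepa1 from -1.51 to 0.028 (without WT replicate 3), and Tcf7l2 from -0.61 to 0.079 (without WT replicate 1). Each of these turns, and those of Gja5 with no filter and Tcf7l2 with normexp correction, came with a change of the probe that represented the gene. On the same probe Gja5 was 1.84, 1.25 and, with no filter, 1.59, Pmepa1 -0.37, and Tcf7l2 -0.46 (-0.45 with normexp correction), so none turned. Named genes that overlapped between genotypes were not counted here, and some of these turned too, such as Csf1r (0.064 without Fgf5-/- replicate 1) and Zbtb16 (0.13 with quantile normalization). The cause was not tested for any of these. Medians of gene families, and the alternatives they were given, were chosen after seeing the data.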

Other observations

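Genes were also grouped by the pattern of their names. The 27 name patterns were looked at after the values were seen, so those described here were picked for how they differed, no test was run on them, and the settings they were recomputed under were chosen after seeing the data too. They are read beside 6.32% of genes higher and 9.69% lower without overlap and a median of -0.037 over all genes.

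Hox genes, which set position along the body axis, had 5 of 22 tested members lower without overlap and 0 higher, with a median of -0.31. Of the Hoxb cluster all 10 tested members had a lower mean in Fgf5-/- (9276 of 15898 over all genes) and 2 were lower without overlap, with a median of -0.49 that ran from -0.67 to -0.35 over the settings. Of these, Hoxb9 and Hoxb1 passed the filter through WT, and were above background on 1 and 2 Fgf5-/- arrays. Hoxb5 read -2.21, -1.37 and -1.32 on the WT arrays and -3.07, -2.65 and -2.33 on the Fgf5-/- arrays, a difference of -1.05 with no overlap. Hoxb6 read -0.73, 0.65 and 0.53 on the WT arrays and -1.15, -1.07 and -0.53 on the Fgf5-/- arrays, where WT replicate 1 lay among the Fgf5-/- arrays.

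Wfdc genes had 5 of 12 members higher without overlap and 0 lower, all of the former within chr2:164405788-164513187, with a median of 0.046 that ran from 0.011 to 0.28 over the settings. With quantile normalization 3 were higher, and with normexp correction 4. Besides the 3 given above these were Wfdc6b, at 1.53, and Wfdc16, at 0.55, of which Wfdc6b was well above background on 2 WT arrays and Wfdc16 on 1. Neighbours such as Wfdc9, Wfdc10 and Wfdc2 overlapped between genotypes.

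Collagen chains had 8 of 28 members higher without overlap and 0 lower, with a median of 0.24 that ran from 0.15 to 0.31. Col5a3 read 0.43, -0.071 and 0.11 on the WT arrays and 0.98, 0.81 and 0.88 on the Fgf5-/- arrays, a difference of 0.74. Replication-type histone genes had 9 of 37 lower and 0 higher, with a median of -0.34 that was -0.17 without Fgf5-/- replicate 1. H1f4, a linker histone, read 1.87, 2.64 and 2.30 on the WT arrays and 1.22, 1.71 and 1.34 on the Fgf5-/- arrays, a difference of -0.85. Rhox genes, X-linked homeobox genes of the reproductive tract, had 6 of 19 lower and 0 higher, with a median of -0.19 that was -0.069 without that array. Vomeronasal receptor genes, which are dim here, had 11 of 34 higher, with a median of 0.30 that was 0.11 with normexp correction.

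Speer genes had 4 of 7 members higher, with a median of 0.35 that was 0.19 with normexp correction. Names of complex I and proteasome subunits had 17 of 47 and 9 of 39 lower. Their medians of -0.25 and -0.16 were -0.055 and -0.019 without Fgf5-/- replicate 1. With quantile normalization 5 complex I names were lower and 0 higher. For proteasome names 1 was then lower and 3 higher (6.64% and 7.68% over all genes).

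Several patterns lay nearer to all genes. Olfactory receptors had 6 of 70 members higher and 5 lower, keratins 2 of 49 and 4, and solute carriers 21 of 270 and 13.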
